A study of Mus musculus with 8 samples.

Results

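Wild type endothelium was compared with wild type hematopoietic clusters, gene by gene across the transcriptome. The comparison takes the 2 endothelium and the 2 cluster libraries of wild type embryos, 4 of the 8 bulk RNA-Seq libraries of the series, and a library belongs to it by its genotype and cell type labels. The cells were taken at E11.5, in midgestation, from the aorta-gonad-mesonephros region with its vitelline and umbilical arteries (AGM+VU). The gate for endothelium was Ter119− VE-Cadherin+ Kit− CD41− CD45−, and the gate for clusters was Ter119− VE-Cadherin+ Kit+. The cluster gate used neither CD41 nor CD45, so it holds any VE-Cadherin+ Kit+ cell, whether or not it already carries a blood cell marker. Each library was made from 100 cells with SMARTSEQ2, a full-length cDNA method with PCR and no molecular identifiers, and cells came from pools of 1 to 4 embryos over 2 sorts. The other 4 libraries are the same cell types from Sl/Sl embryos, which lack the gene for Kit ligand (Kitl). They serve here as separate samples of the same contrast. They were also fitted together with the wild type libraries, so the spread among them entered the wild type calls.

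Blood stem cells arise in the midgestation embryo from endothelium lining the large arteries. Hemogenic endothelial cells round up, leave the vessel wall and form clusters on it, and the change requires the transcription factor Runx1. Cluster cells keep VE-Cadherin for a time while they acquire CD41 and then CD45, and the endothelium around them supplies growth factors such as Kitl. The contrast therefore asks which genes separate the vessel wall from the blood-forming cells that came from it, in normal embryos.

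Counts on genes summed to 12832650 and 10495261 in endothelium replicates 1 and 2, and to 10752465 and 12558926 in clusters replicates 1 and 2. Between 12844 and 13723 of 24015 genes were detected in these libraries. Levels are given below as CPM, counts scaled to a fixed library size, on library sizes scaled by TMM where a gene is compared between libraries, and as RPKM, which also divides by gene length, where levels of different genes are compared. A log2 fold change is endothelium minus clusters, with its standard error, so a positive value means higher in endothelium. A gene was called when the Benjamini-Hochberg adjusted p-value of edgeR's quasi-likelihood test was under 0.1 over the 13908 genes tested, and every adjusted p below comes from this fit. The smallest p that exact permutation allows for 2 libraries on each side is 0.333, and the calls therefore lean on the variation pooled over genes, with a biological coefficient of variation of 0.817. Replicates were separate samples, but with pooled embryos the spread between them may be partly technical.

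Of the genes of the sort gates, Kit and Ptprc followed the labels, which is no finding since the endothelium gate excluded their proteins. Both gates required VE-Cadherin, so they did not select for a difference in its gene Cdh5. Kit, the receptor for Kitl, had 16.0 and 13.8 RPKM in endothelium and 78.8 and 49.7 in clusters. Ptprc, the gene of CD45, had 0.220 and 0.101 RPKM in endothelium and 27.4 and 54.9 in clusters. Cdh5, which encodes the VE-Cadherin used to sort both cell types, had 161 and 107 RPKM in endothelium, 59.1 in clusters replicate 1 and 3.08 in clusters replicate 2. The libraries did not overlap for any of these genes, but the cluster replicates differed more from each other in Cdh5 than in Kit. Itga2b is the gene of CD41, which the endothelium gate excluded and the cluster gate did not use. Its log2 fold change was −2.02, and it was not called (adjusted p = 0.299). Kitl itself had 17.9 and 16.1 RPKM in endothelium, 1.88 in clusters replicate 1 and 0 counts in clusters replicate 2, and its log2 fold change of 4.34 ± 1.62 was not called (adjusted p = 0.181).

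**Figure D1:**
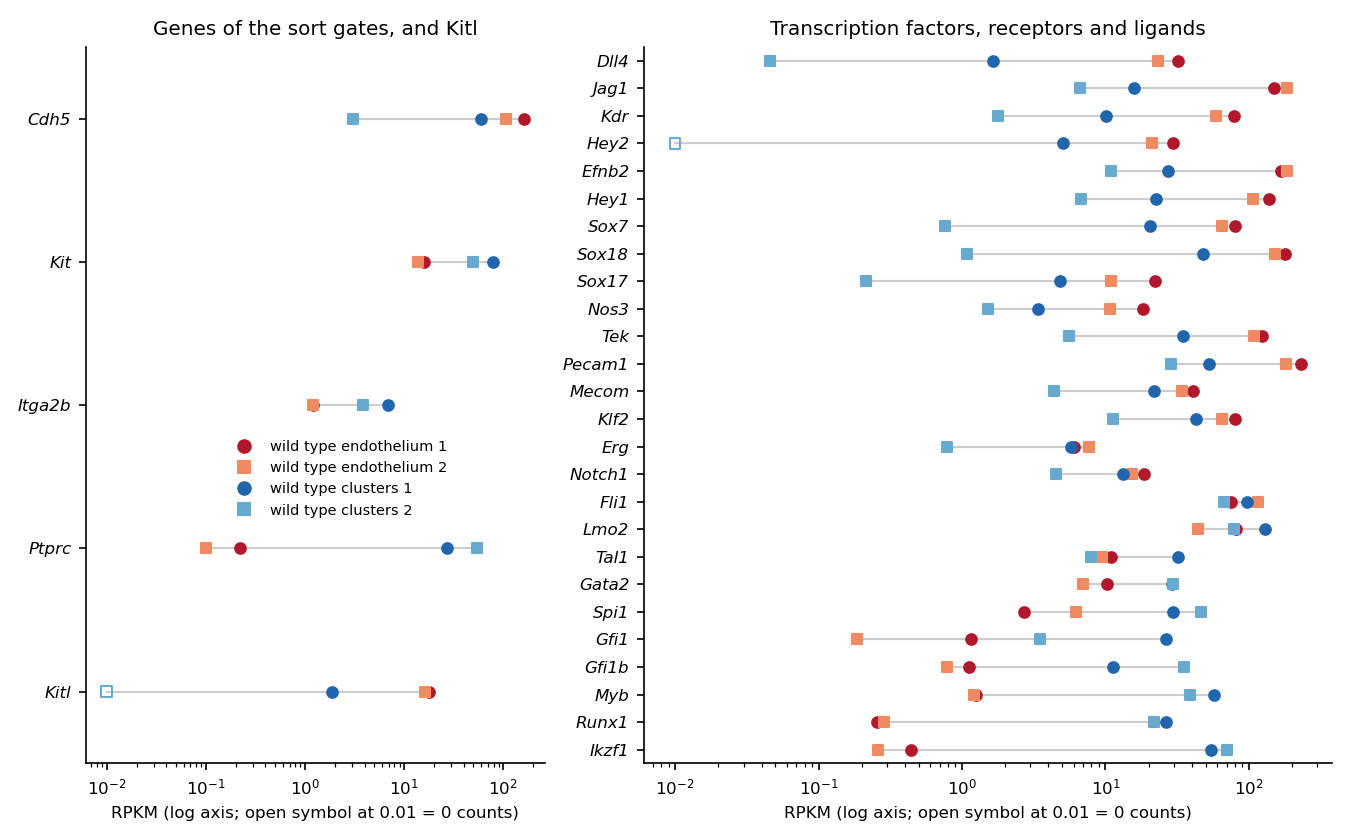
RPKM on a log axis in the 4 wild type libraries, for the genes of the sort gates with Kitl (left) and for 26 transcription factors, receptors and ligands (right), with 1 symbol per library and open symbols for 0 counts. Runx1, Ikzf1 and Myb are at or under 1.26 RPKM in endothelium and at or above 21.8 RPKM in clusters, while most endothelial genes lie further apart between the cluster replicates than between the endothelium replicates.

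Before the results, 3 libraries need a remark, namely both cluster replicates and endothelium replicate 1. Clusters replicate 1 held more RNA of endothelial genes than replicate 2, with a summed level of 4163 against 2455 CPM over 33 genes of endothelial junctions and surface. The endothelium libraries had 16110 and 14940 CPM over the same genes. A sum is weighted to the most abundant genes, and the cluster replicates lay further apart in the median gene. Over the 32 tested genes of this list, the median log2 CPM was 6.42 and 4.46 in clusters replicates 1 and 2. In endothelium it was 8.59 and 8.39. Clusters replicate 1 also held germ cell transcripts, since Dppa3 had 889 counts and Dppa5a 3190 counts there, against 0 counts of each in clusters replicate 2 and at most 1 in endothelium. Over 18 germ cell markers, leaving out the gate gene Kit and Ifitm1, 14 had more than 3 counts in clusters replicate 1 and 4 in replicate 2. Their levels summed to 526.7 and 26.01 CPM, and Dppa5a alone gave 275 CPM of the former. Not all of these markers went this way. Pou5f1, Mael and Nanos2 had 0 counts in the 4 wild type libraries. Ddx4 had 29 counts in clusters replicate 1 and 187 in replicate 2, and Nanos3 and Prdm1 had their higher CPM in endothelium. Endothelium replicate 1 had 2437 CPM over 26 genes of mesenchyme and mural cells, against 515.3 CPM in endothelium replicate 2 and 1095 and 1356 CPM in clusters. Clusters replicate 2 stood apart in transcripts of the Y chromosome. Ddx3y had 494 and 544 counts in endothelium, 611 in clusters replicate 1 and 4 in clusters replicate 2, and Eif2s3y had 987, 618, 515 and 8 counts in the same order. Xist, which is transcribed from the inactive X chromosome, had 1655 and 832 counts in endothelium and 510 and 849 in clusters. In bulk libraries, fewer cells of a type and less RNA per cell cannot be told apart, and what part these differences have in the results below was not tested.

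In all, 1146 of the 13908 genes tested were called, or 8.24% of them. Of these, 634 were higher in endothelium (4.56% of the genes tested) and 512 were higher in clusters (3.68%). At an unadjusted p under 0.05 there were 2706 genes. The libraries of the 2 cell types did not overlap in CPM for 7043 genes (50.6% of the genes tested), and for 1145 of the 1146 called. The 2 directions differed in the size of the differences. Among the genes higher in endothelium the median log2 fold change was 2.52, and 85 of 634 exceeded 6. Among the genes higher in clusters the median was −4.49, and 195 of 512 lay beyond −6. Some of the called genes were close to absent from the other cell type, with 95 of the 512 cluster genes at 3 counts or fewer in both endothelium libraries and 64 of the 634 endothelial genes at 3 counts or fewer in both cluster libraries. The endothelial genes took 18.0% and 17.5% of all CPM in endothelium and still 6.34% and 5.53% in clusters. The cluster genes took 8.19% and 9.82% of CPM in clusters and 2.32% and 2.4% in endothelium. The median log2 fold change over all genes tested was −0.0032. The number of calls depended on single libraries, and was 592 without clusters replicate 2, 727 without endothelium replicate 1 and 750 without endothelium replicate 2, all with the lone library of a cell type assumed to vary like the others.

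**Figure D2:**
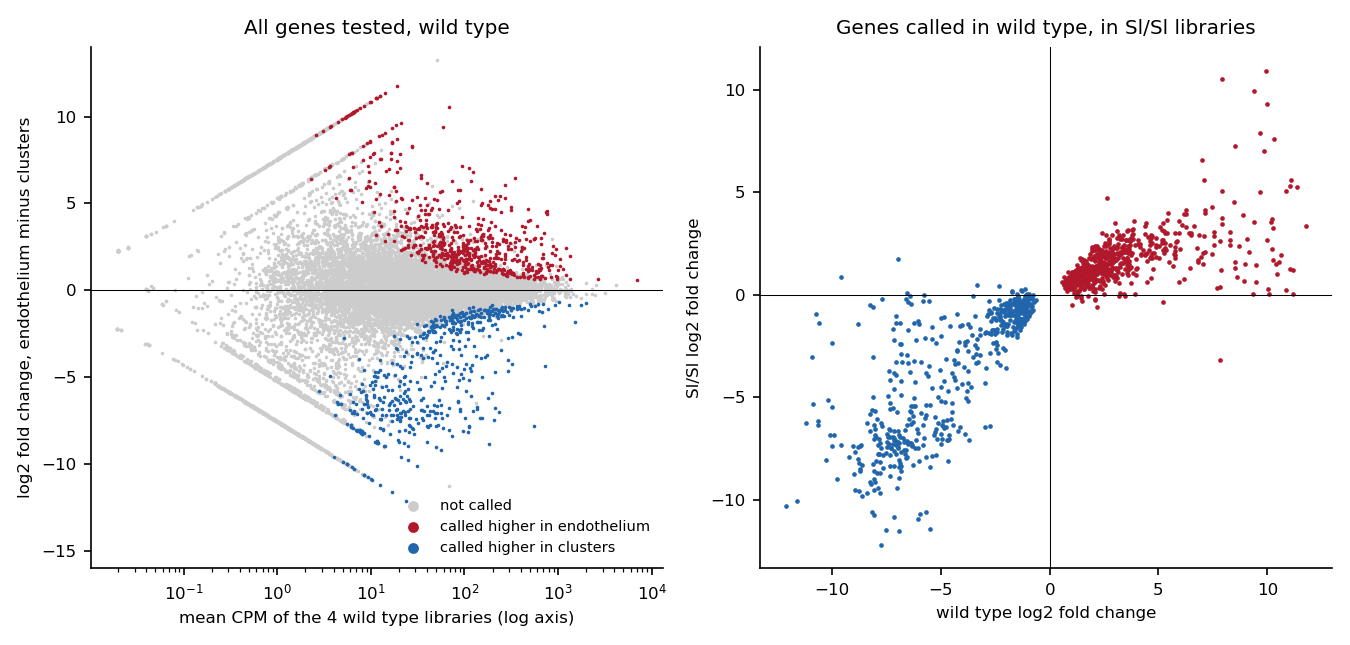
Left, log2 fold change of each gene tested against its mean CPM on a log axis in the 4 wild type libraries, with the 634 genes called higher in endothelium in red and the 512 called higher in clusters in blue. Right, the log2 fold change of these called genes in wild type (horizontal) and in Sl/Sl libraries (vertical), where 1117 of the 1146 lie in the quadrants of equal sign.

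The genes with the strongest evidence for endothelium had well-known vessel roles beside less familiar ones. Id3, an inhibitor of basic helix-loop-helix factors that BMP signals induce (chr4:135699737-135701307, mm9), had 1135 and 1412 CPM in endothelium and 136 and 128 in clusters, a log2 fold change of 3.27 ± 0.24 (adjusted p = 0.00103). Nid1, the basement membrane linker nidogen (chr13:13529869-13604542), had 561 and 486 CPM against 19.5 and 7.40, or 38.9-fold more in endothelium. Jag1, a Notch ligand (chr2:136907187-136942256), had 842 and 1071 CPM against 80.6 and 35.7. In each case the lower endothelium library lay several times above the higher cluster library. Apold1, an early response gene of endothelium, had 62.4 and 172 CPM in endothelium and 3 and 1 counts in clusters, a ratio of counts of 675 with a 95% interval of 263 to 2480 that covers counting error only. Eogt, an enzyme that adds O-GlcNAc to EGF domains including those of Notch, had 117 and 108 CPM against 1.29 and 2.88. Ptprm, a receptor phosphatase of cell contacts, had 181 and 170 CPM against 3.11 and 3.27. Tmem88, an inhibitor of Wnt signalling, had 593 and 629 CPM in endothelium and 20.6 and 28.2 in clusters. The remaining genes of the 12 with the smallest p were Sat1, a polyamine acetyltransferase, Anxa3, an annexin, the growth factor gene Igf1, Nrep and the tubulin gene Tuba1a. These 5 were expressed in both cell types, at 40.7 CPM or more in every library, and were between 5.51-fold and 7.94-fold higher in endothelium. All 12 were called in each of the 4 fits that left out 1 wild type library.

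The strongest genes of clusters were regulators and products of blood cells. Runx1, which drives the endothelial-to-hematopoietic transition (chr16:92601711-92826319, mm9), had 1.91 and 2.22 CPM in endothelium and 182 and 157 in clusters, a log2 fold change of −6.35 ± 0.44 (adjusted p = 0.00103). Ikzf1, the lymphoid and stem cell factor Ikaros (chr11:11586216-11672929), had 2.31 and 1.41 CPM against 261 and 355. Myb, required for definitive hematopoiesis (chr10:20844736-20880790), had 4.85 CPM in each endothelium library and 199 and 145 in clusters. The 3 factors were at trace level in the endothelium and in a narrow range between cluster replicates. Tyrobp, an adaptor of immune receptors, was 106-fold higher in clusters, and Ctss, which encodes the lysosomal protease cathepsin S, was 247-fold higher. Ly86, a partner of a Toll-like receptor relative in myeloid and B cells, had 2 counts in each endothelium library and 877 and 1913 in clusters, a ratio of 642 with an interval of 250 to 2360. Prtn3, a serine protease of neutrophil granules, had 3.66 and 3.74 CPM against 128 and 280, and the chemokine gene Ccl4 had 2.23 and 0.808 CPM against 140 and 213. Rnase6, a secreted ribonuclease, was 96.7-fold higher and Tuba4a, a tubulin, 37.6-fold higher in clusters. Dnmt3b, a de novo DNA methyltransferase (chr2:153475185-153513466), was the only gene among the 12 with more than 5 CPM in endothelium, at 18.6 and 17.5 CPM against 238 and 259. Ptprc completes the 12 and is a gene of the gate. All 12 were called in each of the 4 fits that left out a library.

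**Figure D3:**
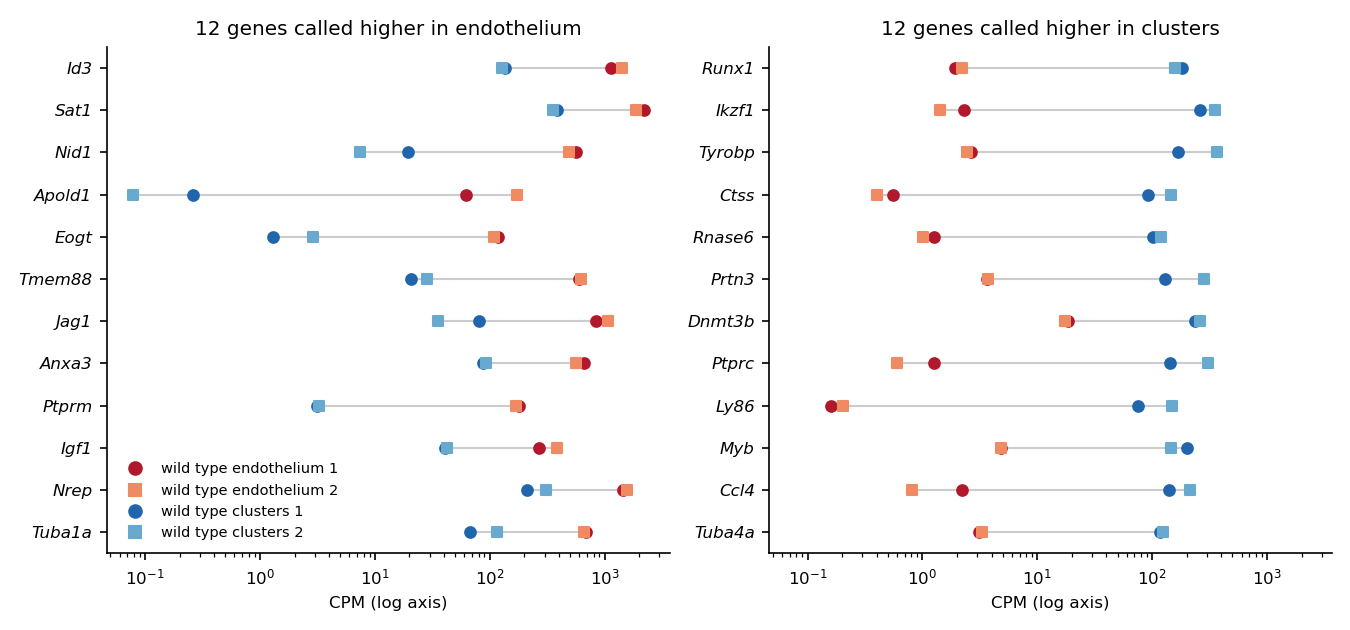
CPM on a log axis in the 4 wild type libraries for the 12 genes with the smallest p among those called higher in endothelium (left) and in clusters (right), 1 symbol per library. The genes were taken from those whose libraries did not overlap between the cell types, so the separation of the symbols follows from this choice.

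Genes were then followed by function, and each list is described by its counts and median. The values to read them against are those of all genes tested, of which 4.56% were called higher in endothelium and 3.68% higher in clusters. The median log2 fold change of all genes, −0.0032, was close to 0. Of 36 endothelial transcription factors tested, 5 were called higher in endothelium and 2 higher in clusters, and the list median was 1.73 on the log2 scale. Ets1, an ETS factor of vessel growth, had 256 and 275 CPM in endothelium and 55.2 and 17.6 in clusters (2.87 ± 0.50, adjusted p = 0.0157). Nr2f2, a factor of venous identity, had 277 and 296 CPM against 22.3 and 38.9 (3.23 ± 0.61, adjusted p = 0.0212), and Hey1, a Notch target of arteries, had 310 and 251 CPM against 46.1 and 14.6. An arterial and a venous regulator were thus both higher in these endothelium samples, which were sorted without regard to vessel type. Elk3 (368 and 340 CPM against 124 and 70.2) and Tcf15 (33.2 and 36.5 CPM against 4.75 and 1.48) were the other 2, and Elk3 was called in only 1 of the 4 fits that left out a library and Tcf15 in 0. In the opposite direction, Mef2c had 117 and 102 CPM in endothelium and 290 and 304 in clusters (−1.44 ± 0.26), and Gata2, which hemogenic endothelium and stem cells share, had 34.0 and 23.8 CPM against 87.5 and 94.5 (−1.65 ± 0.40). Gata2 was called in 0 of the 4 fits and Mef2c in 3.

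The SoxF factors Sox7, Sox17 and Sox18, regulators of arterial and hemogenic endothelium, were not called, with adjusted p between 0.205 and 0.244, and their cluster replicates lay far apart. Sox18 had 297 and 261 CPM in endothelium, 72.6 in clusters replicate 1 and 1.71 in replicate 2. Sox17 showed the same order with 93.2, 47.4, 18.2 and 0.857 CPM, and Sox7 with 268, 226, 61.9 and 2.41. Their endothelium values did not overlap with those of clusters. Without clusters replicate 1, 14 endothelial factors were called in place of 5, and without clusters replicate 2 or either endothelium replicate 3 were. Ets1, Hey1 and Nr2f2 were called in each of these 4 fits. Several factors named for both lineages had levels of the same order in the 2 cell types. Lmo2, an adaptor of blood and vessel complexes, had 158 and 89.4 CPM in endothelium and 230 and 146 in clusters (−0.60 ± 0.39, adjusted p = 0.425). Fli1 had 238 and 382 CPM against 280 and 203, and Tal1 had 47.7 and 43.2 against 127 and 33.2, with overlapping libraries and a direction that changed when a library was left out. Erg (13.7 and 18.1 CPM against 11.8 and 1.71) and Mecom (230 and 201 against 111 and 23.7) were not called either.

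In the Notch pathway, 3 of 23 genes tested were called higher in endothelium and 1 higher in clusters, and the list median was 1.22 on the log2 scale. A pair of ligands was called on the endothelial side. Dll4 had 113 and 85.4 CPM in endothelium and 5.26 and 0.156 in clusters (5.20 ± 1.17, adjusted p = 0.0397), beside Jag1 and the target Hey1 given above, and these 3 were called in each fit that left out a library. Of the receptors, Notch1 had 180 and 155 CPM against 116 and 41.7 (1.09 ± 0.44, adjusted p = 0.213), while Notch2 had 124 and 142 CPM against 379 and 351 (−1.46 ± 0.37, adjusted p = 0.0629). Notch2 was no longer called in any fit that left out a library. Hey2, another target, had 76.6 and 56.6 CPM in endothelium, 11.8 in clusters replicate 1 and 0 in replicate 2, and was not called (adjusted p = 0.355). Without clusters replicate 1, 9 Notch pathway genes were called higher in endothelium.

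Receptors for vascular growth factors formed a second group. Of 23 genes of the VEGF and angiopoietin pathways, 8 were higher in endothelium and 1 in clusters, and the list median was 2.96 on the log2 scale. Kdr, the main VEGF receptor, had 435 and 343 CPM in endothelium and 51.1 and 9.42 in clusters (3.69 ± 0.74, adjusted p = 0.0253). The co-receptor Nrp1 had 1050 and 990 CPM against 186 and 68.8, and Nrp2 had 74.3 and 72.1 against 6.64 and 3.74. Flt1, a decoy receptor for VEGF, had 97.2 and 107 CPM against 15.3 and 15.7. Flt4, Ptprb, Robo4 and the ligand gene Vegfc were also called, between 4.13-fold and 29.6-fold higher in endothelium. Angpt1 went the other way by a wide margin. It encodes the ligand of the endothelial receptor Tek and had 0.875 and 1.62 CPM in endothelium and 167 and 105 in clusters (−6.77 ± 0.67, adjusted p = 0.00153). Tek itself had 591 and 542 CPM in endothelium and 152 and 25.8 in clusters, which narrowly missed the threshold (adjusted p = 0.106). Ligand and receptor thus had their higher values in opposite cell types. Without clusters replicate 1, 13 genes of this list were called higher in endothelium, and Kdr, Flt1, Nrp1, Nrp2 and Angpt1 were called in all 4 fits.

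Guidance molecules, which set borders between arteries and veins, were called on the endothelial side only. Efnb2, the ephrin of arteries, had 736 and 842 CPM in endothelium and 109 and 46.1 in clusters (3.34 ± 0.43, adjusted p = 0.0038), and its receptor Ephb4, of veins, had 117 and 90.3 against 13.7 and 6.70. Efna1 (1018 and 831 CPM against 61.7 and 9.89) and Sema6d (218 and 203 against 28.7 and 3.74) were the other 2 of 4 called among 18 tested. The list median was 2.07 on the log2 scale, and these 4 were called in each fit that left out a library.

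Junction and surface proteins of endothelium gave the largest share of calls among the endothelial lists, with 20 of 32 tested higher in endothelium, 0 higher in clusters and a list median of 2.17 on the log2 scale. Pecam1, the adhesion molecule CD31, had 776 and 637 CPM in endothelium and 161 and 92.9 in clusters (2.48 ± 0.43, adjusted p = 0.0153). Emcn, an endothelial sialomucin, had 1353 and 1605 CPM against 96.3 and 31.0, and Cldn5, the claudin of endothelial tight junctions, had 857 and 934 against 95.9 and 17.1. The gap junction genes Gja4, Gja5 and Gja1 were all called. Gja4 and Gja5, the connexins of arteries, were 27.8-fold and 35.6-fold higher in endothelium, and Gja1 was 3.29-fold higher. Cd93, Icam2, Thbd, Esam, Plvap, Ramp2, Vwf and Eng were also among the 20. Not all of these were lost from clusters, for Cd93 still had 287 and 345 CPM there and Egfl7, a secreted vessel factor, 211 and 206 CPM. The genes of general cell adhesion Ctnnb1 (1252 and 918 CPM against 695 and 447) and Bsg (546 and 670 against 265 and 370) were not called. Of the 33 genes of this list, clusters replicate 1 had over 3 counts for 33 and replicate 2 for 32, so endothelial transcripts were present in both cluster libraries. Cdh5 was not called (adjusted p = 0.257). Without clusters replicate 2, 12 of the list were called, and 11 were called in all 4 fits.

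In the BMP and TGF-beta pathway, 9 of 24 genes were higher in endothelium and 0 in clusters, and the list median was 1.52 on the log2 scale. These covered ligand, receptors, co-receptor and targets, but the calls of the ligand gene Bmp4 and the co-receptor gene Eng depended on single libraries. Leaving out 1 wild type library moved their log2 fold changes between 2.89 and 4.24 and between 1.84 and 4.33. Bmp4, a ligand, had 104 and 72.8 CPM in endothelium and 11.6 and 4.67 in clusters. Among receptors, Acvrl1, which binds BMP9 and BMP10 in endothelium, had 95.7 and 59.8 CPM against 5.69 and 1.79, and Bmpr2 had 263 and 264 against 79.8 and 51.6. Of the targets, Id1 had 343 and 364 CPM against 60.1 and 28.1, and Tmem100 had 513 and 551 against 12.4 and 3.50, or 66.8-fold more. Id2, a relative of Id1 and Id3 that blood cells also use, had 728 and 603 CPM in endothelium, 142 and 445 in clusters, and was not called (1.18 ± 0.48, adjusted p = 0.212). Eng, Ltbp4 and Fstl1 were the other 3 called beside Id3, and 7 of the 9 were called in all 4 fits.

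The extracellular matrix list had 15 of 33 genes higher in endothelium and 0 higher in clusters, and the list median was 2.36 on the log2 scale. Those called include the laminin, nidogen and collagen IV genes of the basement membrane of vessels. The laminin genes Lama4, Lamb1 and Lamc1 were 13.6-fold, 9.16-fold and 6.01-fold higher in endothelium. The collagen IV gene Col4a2 had 888 and 662 CPM against 106 and 12.1 (3.72 ± 0.87, adjusted p = 0.0450). Col4a1, its partner, had 1807 and 1263 CPM in endothelium, 383 in clusters replicate 1 and 13.3 in replicate 2, and was not called (adjusted p = 0.171). Sparcl1 and Sparc, which bind collagen, were 36.7-fold and 6.36-fold higher, and Bgn, a small proteoglycan, was 24.2-fold higher. Fn1, fibronectin, had 1321 and 888 CPM against 618 and 175 and was not called (adjusted p = 0.147). Without clusters replicate 1, 21 of this list were called, and without replicate 2, 11. Sparc was at 177 and 185 CPM in the cluster libraries, whereas Sparcl1 was at 18.7 and 5.61.

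Genes of caveolae, flow and vessel tone had 10 of 25 members higher in endothelium and 1 higher in clusters, and the list median was 2.44 on the log2 scale. The caveolin genes Cav1 and Cav2 had 501 and 340 CPM against 19.4 and 0.389, and 313 and 288 against 12.1 and 6.31. S1pr1, the receptor for sphingosine-1-phosphate, had 479 and 509 CPM against 72.4 and 58.0 (2.92 ± 0.34, adjusted p = 0.0025). In the endothelin system, the receptor gene Ednrb was 17.5-fold higher in endothelium and was called in all 4 fits that left out a library. The ligand gene Edn1, 5.37-fold higher, was not called without clusters replicate 2 or endothelium replicate 1, and the processing enzyme gene Ece1, 5.76-fold higher, was not called without clusters replicate 2 or endothelium replicate 2. Ddah1, which removes inhibitors of nitric oxide synthase, was 25.1-fold higher. The synthase gene Nos3 (77.3 and 46.9 CPM against 12.9 and 6.15, adjusted p = 0.153) and the flow-induced factor gene Klf2 (148 and 125 against 72.5 and 20.1, adjusted p = 0.189) were not called. Ptgs1, which encodes cyclooxygenase 1, was the gene called in the other direction, at 10.1 and 6.57 CPM in endothelium and 98.1 and 80.3 in clusters (−3.42 ± 0.51, adjusted p = 0.00837). In all, 8 of the 11 calls of this list were made in every fit.

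Secreted factors that act on blood progenitors were followed as niche ligands, and 3 of 17 tested were higher in endothelium and 1 higher in clusters. Igf1, insulin-like growth factor 1, had 270 and 387 CPM in endothelium and 40.7 and 42.0 in clusters (2.99 ± 0.30, adjusted p = 0.00155). Mdk, the heparin-binding factor midkine, had 946 and 940 CPM against 357 and 332 (1.45 ± 0.23), so its RNA was abundant in both cell types. Bmp4 was the third, and Angpt1 the gene of clusters. Igf2 had 1471 and 1277 CPM in endothelium and 818 and 223 in clusters and was not called (adjusted p = 0.151). Without clusters replicate 1, 6 of these ligands were called higher in endothelium, and without clusters replicate 2, 2 were.

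Turning to blood, 14 of 40 hematopoietic transcription factors were called higher in clusters and 1 in endothelium, and the list median was −1.90 on the log2 scale, or −1.60 when genes with at most 3 counts in a cell type took their bound. Besides Runx1, Ikzf1 and Myb, the stem cell factor gene Meis1 had 27.1 and 26.8 CPM in endothelium and 172 and 206 in clusters (−2.81 ± 0.47, adjusted p = 0.0133). Hlf, a factor of stem cells, had 5 and 7 counts in endothelium and 1077 and 232 in clusters. Gfi1b, a repressor that turns off endothelial genes, had 26 and 15 counts against 220 and 804 (−4.50 ± 0.80, adjusted p = 0.0170), while its relative Gfi1 had 3.66 and 0.606 against 76.4 and 10.7 and was not called (adjusted p = 0.161). The 2 repressors were highest in different cluster replicates. Spi1, the myeloid factor PU.1, had 3.66 and 8.79 CPM against 36.8 and 61.0, and Irf8, of monocytes and dendritic cells, had 3 and 4 counts against 178 and 345. The lymphoid factor gene Bcl11a was at 48.3 and 42.7 CPM in endothelium and 4.42-fold higher in clusters. Nfe2, Ikzf2, Runx3, Mycn and Gata2 were the others called on the cluster side. Gata3 was the exception, with 46.9 and 103 CPM in endothelium and 21.1 and 13.8 in clusters (2.10 ± 0.55, adjusted p = 0.0696), and of the 4 fits that left out a library it was called only in that without endothelium replicate 1. The Runx partner gene Cbfb had 165 and 108 CPM in endothelium and 190 and 145 in clusters and was not called (adjusted p = 0.727). The number of called factors was 8 without endothelium replicate 1 and 9 without replicate 2, and Runx1, Gfi1b, Myb, Ikzf1, Ikzf2, Nfe2, Hlf and Meis1 were called in all 4 fits.

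Promoters are shown for the called transcription factors of each side, up to 3 with the smallest p among those with an entry in the promoter table, so that the regulatory letters before their starts can be read. Ets1, Hey1 and Tcf15 have no entry. The windows are the 250 bases before the start of Nr2f2 (chr7:70366747-70366996) and Elk3 (chr10:93311160-93311409) for endothelium, and of Runx1 (chr16:92826075-92826324), Ikzf1 (chr11:11685675-11685924) and Myb (chr10:21160985-21161234) for clusters, from RefSeq on build GRCm38.p6, a later build than the mm9 of the counts. Ikzf1 is on the plus strand and the others on the minus strand, each is written in the direction of the gene, and for Runx1 and Ikzf1 the more upstream of 2 starts was taken. Capitals mark the core letters GATA of GATA factors, GGAA of ETS factors, TGNGGT of Runx factors and CANNTG of E-box factors, on either strand, where neighbouring matches can overlap.
Nr2f2: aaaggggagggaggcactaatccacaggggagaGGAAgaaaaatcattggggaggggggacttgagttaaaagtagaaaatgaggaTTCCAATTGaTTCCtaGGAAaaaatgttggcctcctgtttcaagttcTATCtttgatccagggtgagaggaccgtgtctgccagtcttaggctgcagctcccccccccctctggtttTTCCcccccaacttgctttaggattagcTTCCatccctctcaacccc
Elk3: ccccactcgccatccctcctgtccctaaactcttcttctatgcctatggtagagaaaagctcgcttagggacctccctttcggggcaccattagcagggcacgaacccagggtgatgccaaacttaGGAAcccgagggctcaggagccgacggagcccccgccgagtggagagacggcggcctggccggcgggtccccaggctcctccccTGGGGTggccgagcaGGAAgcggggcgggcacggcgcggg
Runx1: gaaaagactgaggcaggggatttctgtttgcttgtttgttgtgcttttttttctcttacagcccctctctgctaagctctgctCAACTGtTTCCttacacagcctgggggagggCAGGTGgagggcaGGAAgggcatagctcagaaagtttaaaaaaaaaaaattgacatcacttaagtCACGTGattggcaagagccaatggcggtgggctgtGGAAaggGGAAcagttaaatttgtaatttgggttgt
Ikzf1: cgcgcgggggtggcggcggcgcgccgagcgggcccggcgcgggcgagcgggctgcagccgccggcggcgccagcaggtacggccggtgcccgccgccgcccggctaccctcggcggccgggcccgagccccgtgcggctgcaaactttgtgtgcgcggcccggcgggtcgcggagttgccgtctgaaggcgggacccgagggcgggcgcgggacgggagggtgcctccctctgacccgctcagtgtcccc
Myb: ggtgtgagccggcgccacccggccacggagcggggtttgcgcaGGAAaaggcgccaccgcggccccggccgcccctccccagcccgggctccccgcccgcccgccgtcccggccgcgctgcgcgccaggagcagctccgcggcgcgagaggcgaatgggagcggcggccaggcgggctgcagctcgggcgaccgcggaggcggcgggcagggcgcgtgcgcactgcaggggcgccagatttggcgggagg
The window of Runx1 held 3 E-box and 4 ETS cores and no Runx core, and that of Nr2f2 held 6 ETS cores, 1 GATA core and 1 E-box core. Elk3 had 2 ETS cores and 1 Runx core, Myb had 1 ETS core, and Ikzf1 had none of the 4. Over all windows of the same length, the Runx core was present in 44.7% of 515 promoters of genes called higher in clusters, 35.5% of 611 promoters of genes called higher in endothelium, 37.8% of promoters of the genes tested and 40.1% of all 32851 promoters. The E-box core was present in 66.4%, 57.9%, 58.0% and 66.2% of the same sets. The ETS core was near saturation, at 91.8%, 92.8%, 93.2% and 93.4%, and the GATA core was at 45.0%, 42.2%, 41.9% and 53.6%. These shares are descriptions of letters, with no test, and a gene with several starts counts more than once.

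Surface and adhesion molecules of blood cells had 16 of 27 members higher in clusters and 3 higher in endothelium, and the list median was −3.81 on the log2 scale. Cd53, a tetraspanin of leukocytes, had 3.18 and 1.31 CPM in endothelium and 151 and 669 in clusters. Itga4, the integrin chain that binds VCAM1, had 24.6 and 25.6 CPM against 250 and 208 (−3.19 ± 0.35, adjusted p = 0.00194). Cd47, which protects cells from phagocytosis, had 157 and 73.7 CPM against 585 and 744. Selplg, the selectin ligand of leukocytes, had 2 counts in each endothelium library and 701 and 1762 in clusters, a ratio of 566 with an interval of 221 to 2080. The leukocyte integrin genes Itgal, Itgb2 and Itgam were 83.4-fold, 147-fold and 155-fold higher in clusters, and Itgam had 0 and 5 counts in endothelium. Ly6a, which encodes the stem cell antigen Sca-1, had 1 and 0 counts in endothelium and 227 and 35 in clusters, a ratio of 241 with an interval of 42.9 to 9560, and of the 4 fits that left out a library it was called only in that without clusters replicate 2. The 3 members higher in endothelium are shared with vessels, namely Cd93, Esam and Cd34. Cd34, a marker of both endothelium and progenitors, had 1089 and 1150 CPM in endothelium and 543 and 463 in clusters (1.15 ± 0.28, adjusted p = 0.0495), and was called in 2 of the 4 fits that left out a library. Procr, the protein C receptor found on endothelium and stem cells, had 133 and 143 CPM against 67.4 and 17.0 and was not called (adjusted p = 0.255). Ptprc is in this list and is a gene of the gate. Of the 19 calls, 13 were made in all 4 fits.

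Cytoskeletal and signalling genes of blood cells gave the largest share of calls of any list, with 31 of 42 higher in clusters, 0 higher in endothelium and a list median of −5.20 on the log2 scale. Rac2, a small GTPase of blood cells, had 5.01 and 2.63 CPM in endothelium and 267 and 568 in clusters (−6.76 ± 0.70, adjusted p = 0.00159). Coro1a, an actin regulator of leukocytes, had 4.93 and 13.9 CPM against 254 and 339, and Dock2, an activator of Rac, had 8 counts in each endothelium library against 1147 and 1204. Vav1, another such activator, was 68.8-fold higher in clusters. Signalling below immune receptors was called from adaptor to kinase and phosphatase. Syk, the tyrosine kinase of ITAM receptors, had 3.58 and 3.84 CPM against 130 and 107, and its partner adaptors Fcer1g and Lcp2 were 61.3-fold and 51.3-fold higher. The phosphatase genes Ptpn6 and Ptpn7 were 115-fold and 48.5-fold higher, and the PI3-kinase gene Pik3cd was 30.8-fold higher. Pik3r5, a subunit of PI3-kinase gamma, had 0 counts in both endothelium libraries and 102 and 361 in clusters, at least 68.1-fold higher with a floor of 3 counts per library. The calls of these PI3-kinase genes depended on single libraries. Leaving out 1 moved the log2 fold change of Pik3cd between −7.11 and −4.11 and that of Pik3r5 between −11.36 and −9.68. Members of the list that endothelium expressed well differed less. Arhgdib, an inhibitor of small GTPases, had 518 and 823 CPM in endothelium and 1852 and 2888 in clusters, or 3.54-fold more, and Lyn, a Src family kinase, had 101 and 118 CPM against 151 and 137 and was not called (adjusted p = 0.573). In the 4 fits that left out a library between 22 and 27 of the list were called, 21 of them in every fit.

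Among 30 cytokine and growth factor receptors, 8 were higher in clusters and 0 in endothelium, and the list median was −1.19 on the log2 scale. Flt3, a receptor of lymphoid and myeloid progenitors, had 4 and 3 counts in endothelium and 617 and 964 in clusters (−7.64 ± 1.18, adjusted p = 0.00918). Il7r, the receptor for interleukin 7, had 1 count in each endothelium library and 444 and 786 in clusters, a ratio of 566 with an interval of 156 to 4680. Csf2rb, the chain shared by receptors for GM-CSF, IL-3 and IL-5, had 5 and 3 counts against 185 and 971, and Csf1r, the receptor of the macrophage lineage, 5 and 2 against 448 and 300. Ccr2, a chemokine receptor of monocytes, and Il17ra, a receptor for interleukin 17, were also called. The receptors with few counts in endothelium thus include genes of lymphoid and of myeloid cells. Kit is among the 8 and is a gene of the gate. Interferon receptors were not of this kind, since Ifngr1 had 153 and 178 CPM against 185 and 229 (adjusted p = 0.546).

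Genes of single blood lineages were called in the cluster libraries for several lineages, with unequal replicates. Of 16 genes of myeloid granules and neutrophils, 11 were higher in clusters and 0 in endothelium, and the list median was −4.45 on the log2 scale. Mpo, myeloperoxidase, had 9.78 and 28.2 CPM in endothelium and 140 and 431 in clusters, while Lyz2, lysozyme, had 5.96 and 25.2 against 682 and 130. The calprotectin gene S100a8 had 346 CPM in clusters replicate 1 and 6.46 in replicate 2, against 7.39 and 5.15 in endothelium, and without clusters replicate 1 its log2 fold change was −0.04. Of the 11 calls, 6 were made in all 4 fits, Mpo and Lyz2 among them. Of 26 megakaryocyte and platelet genes, 8 were higher in clusters and 2 in endothelium, and the list median was −4.51 on the log2 scale. Rgs18, a regulator of platelet signalling, had 4.53 and 2.73 CPM in endothelium and 335 and 594 in clusters, and Pf4, platelet factor 4, had 12.6 and 5.46 against 23.6 and 433. Ppbp, another platelet chemokine, had 12.1 CPM in clusters replicate 1 and 515 in replicate 2 and was not called (adjusted p = 0.106). The 2 endothelial genes of this list were Vwf, which endothelium and platelets both make, and F2r, the thrombin receptor. Without clusters replicate 2 or endothelium replicate 1, 5 of the megakaryocyte genes were called. Of 15 lymphoid genes, with a list median of −0.51 on the log2 scale, Il7r, Rag2, Cd7 and Cd3g were called higher in clusters. The list was divided in direction, with 8 negative and 7 positive log2 fold changes. The positive ones include Vpreb1 (2.30), Cd79a (1.99) and Ebf1 (1.52), which were not called. Rag2, a recombinase of antigen receptor genes, had 0 and 1 counts in endothelium and 174 and 1095 in clusters, a ratio of 1170 with an interval of 209 to 46100. Cd7 had 3 and 1 counts against 24 and 834, a ratio of 197 with an interval of 76.8 to 726. Without clusters replicate 2 or endothelium replicate 1, only 1 of these 4 was called, and without endothelium replicate 2, 2 were, and Il7r was called in every fit. S100a8 was thus high in clusters replicate 1 only, and Pf4, Ppbp and Cd7 mainly in clusters replicate 2. Gata3 was the only lymphoid gene called higher in endothelium.

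Interferon and innate immune genes had 8 of 31 members higher in clusters and 1 in endothelium, and the list median was −1.21 on the log2 scale. Ifitm1, a membrane protein of early progenitors and germ cells, had 68.1 and 66.1 CPM in endothelium and 924 and 1831 in clusters (−4.36 ± 0.42, adjusted p = 0.00146). Its neighbour Ifitm2 had 993 and 1175 CPM against 819 and 743 and was not called (adjusted p = 0.266), and reads shared between close relatives of this family may be split by the counting. The immunoproteasome genes Psmb8 and Psmb9 were 35.0-fold and 140-fold higher in clusters, whereas B2m, the light chain of MHC class I, had 1108 and 1211 CPM against 794 and 1001 and was not called. Ly96, a partner of Toll-like receptor 4, was the gene higher in endothelium, at 71.7 and 61.3 CPM against 1.64 and 8.95. Without clusters replicate 2 or either endothelium replicate, 5 of the 8 were called.

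Genes of cell division had mostly negative log2 fold changes of small size. Of 47 genes of DNA replication, 43 had a negative log2 fold change, and 8 (17.0%, against 3.68% of all genes tested) were called, all higher in clusters, with a list median of −0.77. Mcm5, of the replicative helicase, had 92.7 and 108 CPM in endothelium and 256 and 238 in clusters (−1.30 ± 0.27, adjusted p = 0.0302), and Gmnn, which limits origin licensing, had 156 and 155 against 344 and 351. Of 44 genes of mitosis, 43 had a negative log2 fold change, and 11 (25%) were called, all higher in clusters, with a list median of −0.89. Top2a, topoisomerase II alpha, had 108 and 235 CPM against 486 and 506, Mki67, the antigen Ki-67, had 96.4 and 119 against 243 and 300, and Kif11, a spindle motor, had 33.2 and 40.8 against 124 and 169. Endothelium was not without such transcripts, as Birc5 had 331 and 590 CPM there and 576 and 638 in clusters and was not called (adjusted p = 0.451). Without clusters replicate 1 or 2 the DNA replication calls numbered 3 and 2, and without endothelium replicate 1 or 2 they numbered 1 and 5. For mitosis the 4 fits gave 7, 4, 3 and 13 in the same order. None of the 8 DNA replication calls was made in all 4 fits, and of the mitosis calls Kif11 alone was. With library totals in place of TMM scaling, which moved the median of all genes to −0.131, 10 and 14 genes were called, all still higher in clusters.

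Housekeeping machinery was followed in 3 lists. Of 77 cytosolic ribosomal protein genes, 0 were called by edgeR and 1 had an unadjusted p under 0.05. Their log2 fold changes had a median of −0.10, a lowest value of −0.72 and a highest of 0.75. DESeq2 also called 0 of them on the 8 libraries, and library totals without TMM gave 1 higher in clusters. Of 57 genes of oxidative phosphorylation, 1 was called, the ATP synthase gene Atp5a1, with 540 and 489 CPM in endothelium and 828 and 929 in clusters (−0.77 ± 0.21, adjusted p = 0.0731), and this call was made in 0 of the 4 fits that left out a library. Of 27 chromatin regulators, 3 (11.1%) were higher in clusters. Besides Dnmt3b they were Dnmt3a, the other de novo DNA methyltransferase (130 and 111 CPM against 291 and 308), and Suz12, of the Polycomb repressive complex (75.9 and 76.0 against 218 and 205). Dnmt3b was called in every fit that left out a library, and Dnmt3a and Suz12 in 0 of them.

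Of 21 imprinted and fetal growth genes, 7 were higher in endothelium and 2 higher in clusters, and the list median was 1.16 on the log2 scale. The 7 were all imprinted genes, but not every imprinted gene of the list was called. Mest, an imprinted gene of mesoderm, had 1395 and 1470 CPM in endothelium and 63.1 and 65.3 in clusters (4.48 ± 0.46, adjusted p = 0.00155). Plagl1, a zinc finger factor, had 1002 and 773 CPM against 165 and 80.2, and the non-coding RNA H19 had 1661 and 1639 against 749 and 206. Sgce, Ndn, Igf2r and Grb10 were the others. Phlda2, also imprinted, went the other way, with 4 and 0 counts in endothelium and 850 and 365 in clusters. So did Lin28b, an RNA-binding protein of fetal blood progenitors (43.4 and 14.8 CPM against 147 and 126). The call of Lin28b depended on single libraries, and leaving out 1 moved its log2 fold change between −3.21 and −1.65. The fetal growth genes Hmga2 (−0.84), Igf2bp1 (−0.28), Igf2bp3 (−0.90), Arid3a (−0.32) and Igf2bp2 (0.19) were not called. Without endothelium replicate 1, 3 of the 7 were called, and 4 without endothelium replicate 2 or clusters replicate 2. Of 27 Hox genes, which record position along the body axis, Hoxb7, Hoxa4 and Hoxd8 were higher in endothelium and 0 higher in clusters. Hoxb7 had 418 and 426 counts in endothelium and 4 and 1 in clusters, a ratio of 184 with an interval of 78.3 to 567, and Hoxa4 had 192 and 64 counts against 0 in both cluster libraries, at least 44.1-fold higher. Hoxa9, a Hox gene of stem cells, had 73.5 and 49.3 CPM against 123 and 107 and was not called (adjusted p = 0.381). Hoxb7 was the only Hox gene called in every fit, and 1 Hox gene was called without either cluster replicate or without endothelium replicate 1.

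**Figure D4:**
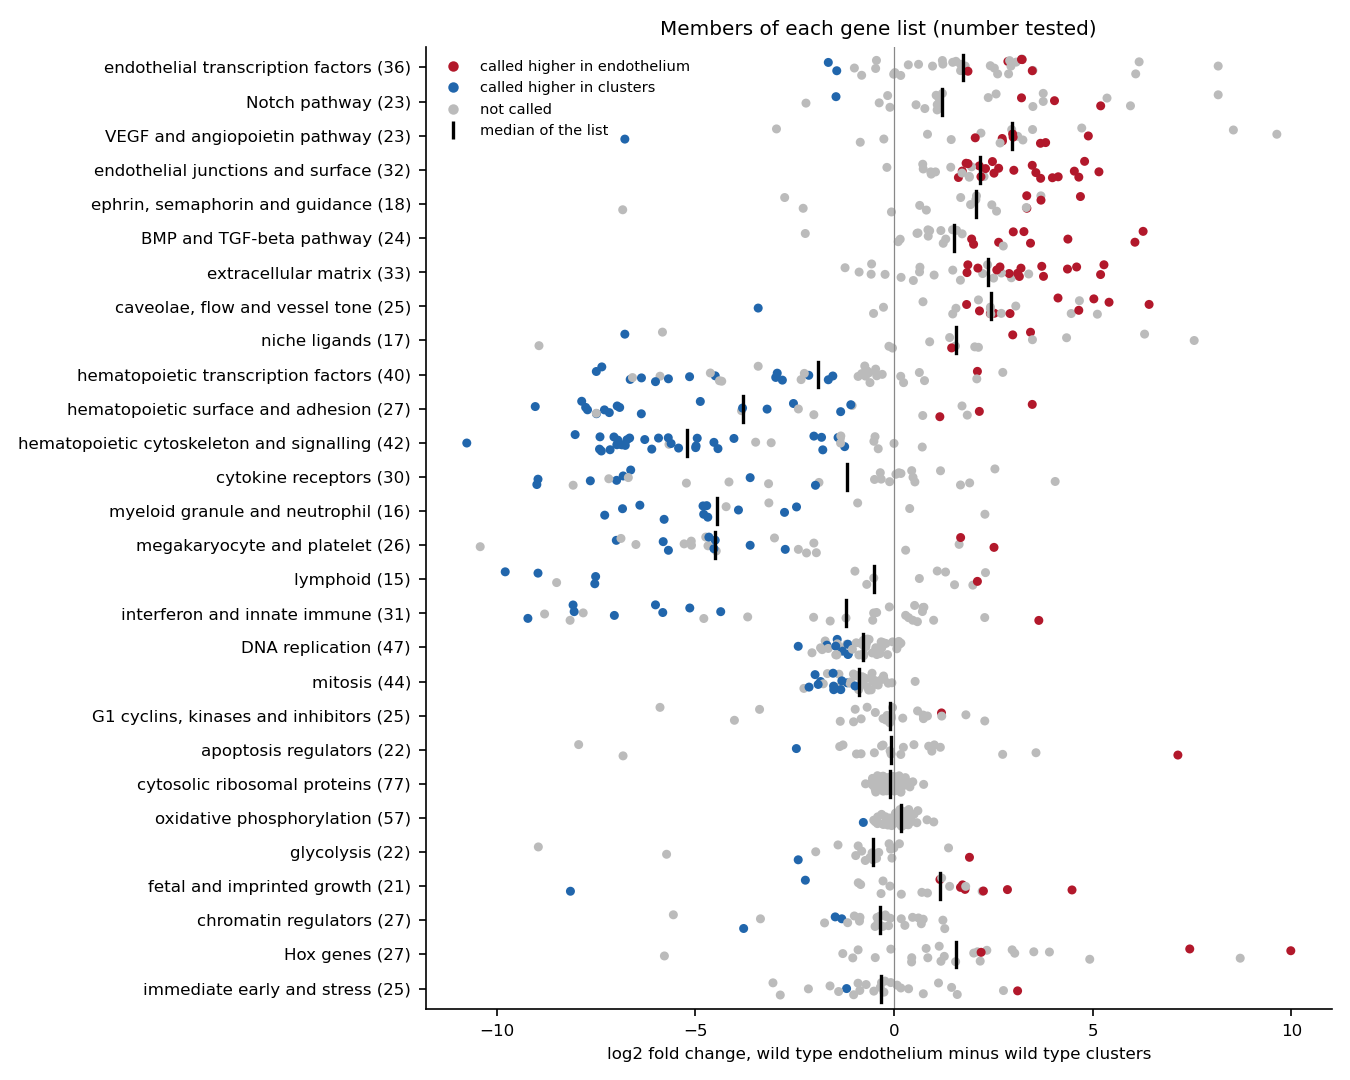
Log2 fold change (endothelium minus clusters, wild type) of every tested member of 28 gene lists, with the number tested in parentheses, called members in red or blue, other members in grey and a black bar at the median of the list. Medians of the endothelial lists lie between 1.22 and 2.96, those of the blood cell lists between −5.20 and −0.51, and those of ribosomal proteins and oxidative phosphorylation are −0.10 and 0.19.

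Markers of other cells that the gates could hold were measured as whole lists. Of 22 macrophage genes tested, 10 were higher in clusters, and the list median was −5.76 on the log2 scale, or −4.26 with genes at their bound, and their levels summed to 1797 and 2073 CPM in clusters and 548.1 and 619.8 in endothelium. Fcgr3, an Fc receptor, had 7.71 and 2.02 CPM in endothelium and 122 and 587 in clusters, and Cx3cr1, of monocytes and microglia, had 0 counts in endothelium and 137 and 359 in clusters, at least 73.4-fold higher. Without endothelium replicate 1, 6 of these 10 were called. Of the 24 genes of the whole list, 18 and 19 had more than 3 counts in the cluster libraries, and 11 and 10 in endothelium. Among defining markers, Emr1, the gene of F4/80, had 16 and 139 counts in clusters and 1 in each endothelium library, Fcgr1 had 169 and 178 against 1 and 0, and Aif1 had 138 and 91 against 1 in each. The complement genes C1qa, C1qb and C1qc had 1, 55 and 7 counts in clusters replicate 1 and 23, 155 and 106 in replicate 2, against at most 3 in endothelium. Cd163, Msr1 and Cd14 had 0 counts in both cluster libraries, Timd4 had 1 and 0, and Mrc1 had 53 and 1. Markers of macrophages were thus partly present and partly absent in the cluster libraries, and their part in the results was not tested. Of 12 erythroid genes tested, 1 was called, Car2, with 8.03 and 40.5 CPM against 226 and 424. The adult globin genes Hba-a1, Hba-a2, Hbb-b1 and Hbb-b2 were at 0 counts in the 4 libraries. Reads shared between these close relatives may have been left out of the counting, so 0 counts do not show that their RNA was absent. The embryonic globin gene Hbb-y had 300 and 316 counts in endothelium and 51 and 228 in clusters. Hbb-bh1, also embryonic, went the other way, with 29 and 15 counts against 695 and 35, and Hba-x had 2 and 34 against 10 and 3. Mesenchyme and mural genes had 2 of 25 higher in endothelium, Fbln1 and Abcc9, and neither was called in every fit that left out a library. Dcn, of fibroblasts, had 3759 counts in endothelium replicate 1 and 2 in replicate 2, against 865 and 1640 in clusters. Of 9 germ cell genes tested, Kit and Ifitm1 were called, and neither is particular to germ cells. Sarcomere genes had 0 of 20 called by edgeR, 3 at an unadjusted p under 0.05 and 4 called by DESeq2 on the 8 libraries. Liver and epithelial genes had 1 of 13 called, Cldn7, which was called in 1 of the 4 fits. The neural and neural crest list had 4 of 12 higher in endothelium. These were Ednrb, given above, Stmn2, a tubulin-binding protein of growing neurites, with 391 and 546 CPM against 20.6 and 0.857 (5.45 ± 1.16, adjusted p = 0.0330), Gap43, a growth cone protein, with 223 and 156 against 28.2 and 25.3, and Isl1, with 49.1 and 60.2 against 6.13 and 17.1, which was called in 1 of the 4 fits. The neural markers Elavl3 and Th had 0 counts in the 4 libraries, Sox10 had 166 counts in endothelium replicate 1 and 0 elsewhere, and Tubb3 had 146 and 1 counts in endothelium.

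**Figure D5:**
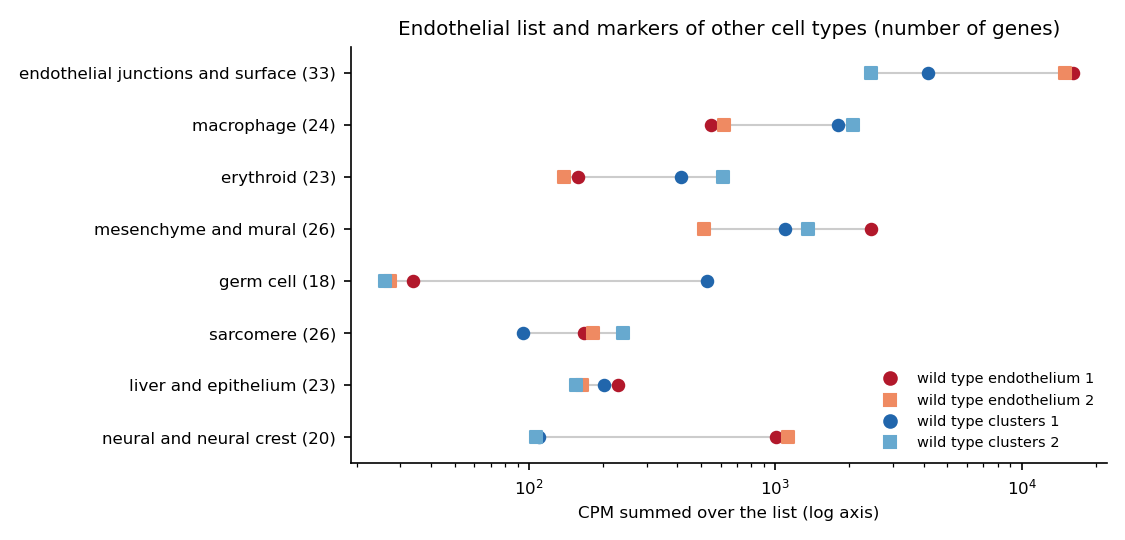
CPM summed over the genes of each list, on a log axis, in the 4 wild type libraries, with the number of genes in parentheses and 1 symbol per library. The germ cell sum leaves out Kit and Ifitm1 and is 526.7 CPM in clusters replicate 1 against 26.01 in replicate 2, and the neural list is the only 1 of the other cell types for which both endothelium libraries are above both cluster libraries.

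The same contrast was taken in the Sl/Sl libraries. The 2 contrasts share no library, but the 8 libraries were fitted together, so the spread among Sl/Sl replicates also entered the wild type calls. With edgeR on the 4 wild type libraries alone, 959 genes were called, and 858 of them were among the 1146 (74.9% of these). Of the 1146 genes called in wild type, 1117 (97.5%) had the same sign in Sl/Sl, where 68.0% of all genes tested did. This held for 620 of the 634 genes higher in endothelium and for 497 of the 512 higher in clusters. The Sl/Sl contrast called 393 genes (2.83% of the genes tested), and 332 of them were wild type calls of the same sign, 29.0% of the wild type calls and 84.5% of the Sl/Sl calls. By direction, 118 of 634 endothelial and 214 of 512 cluster genes were called again. The median log2 fold change of the wild type calls was 1.39 in Sl/Sl for endothelial genes against 2.52 in wild type, and −2.69 against −4.49 for cluster genes. These genes were chosen by passing the threshold in wild type, which favours large wild type values. The smaller medians in Sl/Sl therefore do not show a smaller difference between the cell types there. Runx1, Ikzf1, Myb and Tyrobp had log2 fold changes of −5.73, −6.60, −6.24 and −7.18 in Sl/Sl, and Id3, Nid1 and Jag1 of 1.58, 3.00 and 2.70. Nr2f2 was near 0 in Sl/Sl, at 0.10 ± 0.56, and Bmp4 at 0.05 ± 0.69. The interaction of cell type and genotype passed the threshold for 0 genes in edgeR's test, with 736 at an unadjusted p under 0.05 and a smallest adjusted p of 0.621, so differences between the 2 genotypes in these contrasts were not shown. Of the 29 wild type calls with the opposite sign in Sl/Sl, 0 were called there.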

How the data were processed

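Gene expression was measured by SMARTSEQ2 RNA-Seq in 8 samples of 100 sorted cells. Reads of 75 bases from both fragment ends were mapped by the authors to mm9 with STAR 2.4.2a, and the deposited whole-number counts per gene were made with featureCounts of Subread 1.4.5. The annotation, strand setting and handling of multiply mapped reads are not given in the sources used here. The authors tested genes with DESeq2 1.12.4.

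From the counts of 24015 genes, edgeR 4.0.16 in R 4.3.3 kept 13908 by filterByExpr (minimum count 10), scaled libraries by TMM and fitted a quasi-likelihood model of 4 groups to all 8 libraries. The wild type contrast was endothelium minus clusters, with a Benjamini-Hochberg adjusted p under 0.1, as in the study. CPM use TMM-scaled library sizes and RPKM plain totals with exon lengths from the file. Intervals and the floor of 3 counts per library cover counting error only, since reads without molecular identifiers are not independent molecules. The names of 27 genes had turned into dates, and these genes were tested but not named. Named genes were the 12 with the smallest p in each direction, the gate genes, a panel of 26 and members of the gene lists. The 12 were taken from the called genes whose libraries did not overlap in CPM between the cell types. The samples compared, the lists and the tests were chosen with earlier results of these data known. The procedure was tested on simulated data. Whether samples with the same replicate number share a sort is not stated. Their deviations from the group means did not go together across genes (r = 0.000562 in wild type and 0.00558 in Sl/Sl).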

Additional observations from a re-analysis of the deposited data

How the results depend on the processing

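All 1146 genes called kept their direction in every alternative that tested them, and their number depended on the settings. At an adjusted p under 0.05 there were 657 calls, 372 higher in endothelium and 285 in clusters, of which 644 had the same sign in Sl/Sl. Without a filter on low counts there were 1990 (1127 and 863, with 1873 of the same sign). DESeq2 1.42.0 called 2581 on 8 libraries (1308 and 1273, with 2328 of the same sign) and 2459 on the 4 wild type libraries (1288 and 1171). Leaving out 1 wild type library gave from 592 to 1015 calls, from 351 to 620 higher in endothelium, from 241 to 395 higher in clusters and from 567 to 993 of the same sign in Sl/Sl. These were 592 without clusters replicate 2, 727 without endothelium replicate 1 and 750 without endothelium replicate 2. RLE size factors, a minimum count of 50 and edgeR on the 4 wild type libraries gave 1122, 1200 and 959 calls. With library totals in place of TMM the median of all genes moved to −0.131, and the share of calls higher in endothelium was 46.1% in place of 55.3%. With the replicate number as a block, 921 genes were called on the 4 wild type libraries and 1180 on the 8, and since the labels give no pairing these are values only. Among genes not called, the log2 fold change of Tal1 ranged from −1.51 without clusters replicate 2 to 0.45 without clusters replicate 1, and that of Fli1 from −0.021 without endothelium replicate 2 to 0.66 without endothelium replicate 1. The causes of these changes were not tested. Replicates of 100 cells differed in many transcripts, since 885 genes in endothelium and 580 in clusters had 3 counts or fewer in 1 replicate and 50 or more in the other, and a gene that was not called is not shown to be equal.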

Other observations

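In the lists of G1 regulators, apoptosis, glycolysis and the stress response, between 0.0% and 4.55% of the genes tested were called in either direction, near the 4.56% and 3.68% of all genes tested, so the calls are given as single genes. Btg2, an antiproliferative gene, was the only 1 called of 25 G1 genes, with 155 and 144 CPM in endothelium and 52.4 and 78.0 in clusters (1.20 ± 0.32, adjusted p = 0.0715 by edgeR), and was called in 0 of the 4 fits that left out a wild type library. Of 22 apoptosis regulators, Bid was higher in clusters, with 15.6 and 34.1 CPM in endothelium against 73.9 and 198, and Bik was higher in endothelium, with 156 and 248 counts against 1 and 2 in clusters. Bid was called in 2 of the 4 fits and Bik in 1. Of 22 glycolysis genes, Hk2, a hexokinase, had 28.8 and 40.1 CPM in endothelium and 170 and 197 in clusters (−2.41 ± 0.44), and Slc2a1, which encodes GLUT1, had 254 and 195 CPM against 79.2 and 41.3 (1.90 ± 0.44). Hk2 was called in all 4 fits, and Slc2a1 was not called without clusters replicate 2 or endothelium replicate 1. Of 25 immediate early and stress genes, Cyr61 was higher in endothelium and Hsp90aa1, a chaperone, was higher in clusters, the latter with 389 and 379 CPM against 812 and 944. Hsp90aa1 was called in all 4 fits and Cyr61 in 2.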
